A study of Mus musculus with 8 samples.

Results

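The genes described are 10 regulators of entry into the cell cycle: the D cyclins Ccnd2 and Ccnd3, their kinases Cdk4 and Cdk6, the CDK inhibitors Cdkn1a, Cdkn1b and Cdkn2c, the retinoblastoma gene Rb1, and the transcription factor genes Myc and Trp53. They were taken by gene name from a table of 19703 genes, and all 10 had a row and passed the filter on low values (a mean normalized count of at least 10), as did 11083 genes in all. The cells were regulatory T cells (Tregs), a CD4 subset that depends on the transcription factor FOXP3, sorted by a GFP reporter from mice of the strain labelled Foxp3-GFP, and the titles mark the cells of both groups as WT (wild type). Every culture, control cultures included, received beads against CD3 and CD28 together with IL6, IL23 and IL1B, which push CD4 cells towards the Th17 fate, and RNA was taken on day 6. One group was titled untreated and the other FcCD70, a soluble form of the ligand of the costimulatory receptor CD27, and the question was what CD27 signalling changes in Tregs under these conditions. The labels name 4 samples of each group, and 7 have values here: untreated numbered 1 to 4 and FcCD70 numbered 1 to 3; the FcCD70 sample numbered 4 was not analysed here. In all 8 samples the treatment field contradicts the title. Groups follow the titles, as the column names do, so every direction given depends on the titles being correct. The labels do not say whether samples came from separate or pooled mice, so the p-values reflect sample-to-sample spread that may be technical.

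A T cell leaves rest when D cyclins bind CDK4 or CDK6 and phosphorylate the retinoblastoma protein, which then frees E2F factors to switch on the genes of DNA synthesis. INK4 inhibitors such as the product of Cdkn2c block CDK4 and CDK6 directly, the CIP/KIP inhibitors encoded by Cdkn1a and Cdkn1b bind cyclin and CDK complexes, MYC drives growth and the D cyclin arm, and p53 induces Cdkn1a upon damage. In Tregs this machinery is of interest because they proliferate readily in the body, yet respond weakly to T cell receptor stimulation in culture unless IL-2 is supplied.

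The 7 libraries held 18159685 to 23527899 reads assigned to genes, and 3 reads correspond to 2.61 to 3.37 normalized counts, far below every value of these 10 genes. The FcCD70 library numbered 2 stood farthest from the others: the SD of its log2 deviations from each gene's median over 11083 genes was 0.473, against 0.256 to 0.439 in the other 6. The T cell and Treg markers (Foxp3, Il2ra, Ctla4, Ikzf2, Cd4 and Cd3e) summed to 64940 to 69400 normalized counts in the untreated and 54430 to 68730 in the FcCD70 libraries. Foxp3 itself, the defining Treg gene, stood at 4811 to 6585 normalized counts in 6 libraries and at 2788 in the FcCD70 library numbered 2. Of other cell types, counting the markers that had a row, 2 of 2 CD8 T cell markers summed to 118 to 183 and 149 to 201, 4 of 4 B cell markers to 19.4 to 82.5 and 22.5 to 34.4, 3 of 5 myeloid markers to at most 3.03 and 4.49, 2 of 3 NK cell markers to at most 5.83 and 7.94, and 2 of 3 erythroid markers to at most 1.74 and 0, in the 2 groups in that order. The NK cell gene Ncr1 was at 0 throughout.

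Per length of transcript, the inhibitor Cdkn1b was the most abundant of the 10 genes. The levels in this paragraph are normalized counts divided by the kilobases of a gene's merged exons (GENCODE M21), and each mean is over 7 libraries of both groups. Cdkn1b, which encodes p27, the inhibitor linked to quiescence in lymphocytes, stood at 2851 ± 126 (SD, n = 7) and Rb1 at 1517 ± 199 (SD, n = 7). Cdk4 followed at 1076 ± 92.1 (SD, n = 7), Ccnd2 at 828 ± 204 (SD, n = 7), Myc at 657 ± 185 (SD, n = 7) and Trp53 at 558 ± 49.9 (SD, n = 7). The lower end held Ccnd3 at 319 ± 36.0 (SD, n = 7), Cdkn1a at 194 ± 15.9 (SD, n = 7), Cdk6 at 162 ± 33.2 (SD, n = 7) and Cdkn2c at 87.5 ± 16.1 (SD, n = 7). The library ranges of Cdkn1b, Rb1 and Cdk4 did not overlap, nor did those of Trp53 and Ccnd3 or of Ccnd3 and Cdkn1a. Neighbours in the run from Cdk4 to Trp53 overlapped, as did those in the run from Cdkn1a to Cdkn2c, so the order of neighbours there was not separated. Genes farther apart in a run could be separated. The lowest Cdk4 value (986) was above the highest of Myc (907) and of Trp53 (629). The lowest Cdkn1a value (173) was above the highest of Cdkn2c (104). Ccnd1, the third D cyclin, had 0 reads in all 7 libraries, which allows up to 3 reads in each. Merged exons join all annotated isoforms, and an isoform mostly shorter than that would have a higher level than given here.

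**Figure D1:**
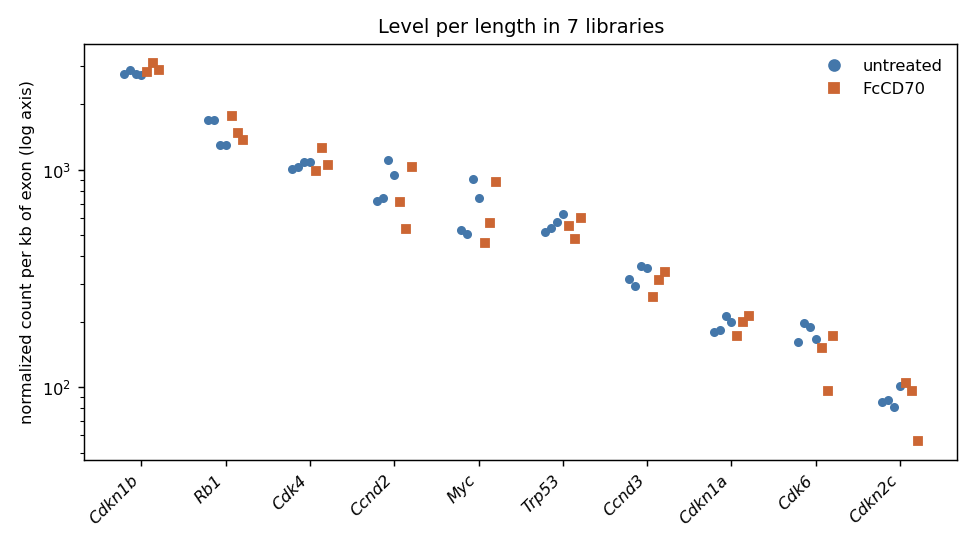
Normalized counts per kilobase of merged exon (log axis) for each of the 10 genes, 1 point per library (circles untreated, squares FcCD70). Cdkn1b lies highest in every library, at 2741 to 3106, and Cdkn2c reaches from 56.5 to 104.

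None of the 10 genes differed between FcCD70 and untreated cells beyond the spread of the libraries. The fold changes of the main limma fit rest on 3 same-numbered pairs, since the untreated library numbered 4 had no partner. The group means given below for untreated cells include that library. In limma with the replicate number as a block, 0 of 10 had an adjusted p under 0.05 (adjusted p = 0.9998 for each), beside 0% of all genes tested, and 1 of 10, Cdk6, had an unadjusted p under 0.05, beside 1.7% of all genes. Of the 11083 genes limma called 0 and edgeR 0, with 188 and 168 at an unadjusted p under 0.05, and DESeq2 called 1, with 141 at that p. The gene was Il17f, a cytokine of the Th17 fate, with a log2 fold change of -1.55 (adjusted p = 0.000565 in DESeq2), and it is named after its values were seen. Of the 10 genes edgeR and DESeq2 called 0, each with 1 at an unadjusted p under 0.05. In 0 of 10 genes were the groups free of overlap (2.53% of all genes). In 3 of 10 the FcCD70 library lay on the same side of its partner in 3 of 3 same-numbered pairs, beside 18.6% of all genes: Cdk6 and Ccnd2 below (9.61% of all genes) and Cdkn1b above (9.03%). The median log2 fold change of the 10 genes was -0.02, and that of all genes tested was -0.0035.

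**Figure D2:**
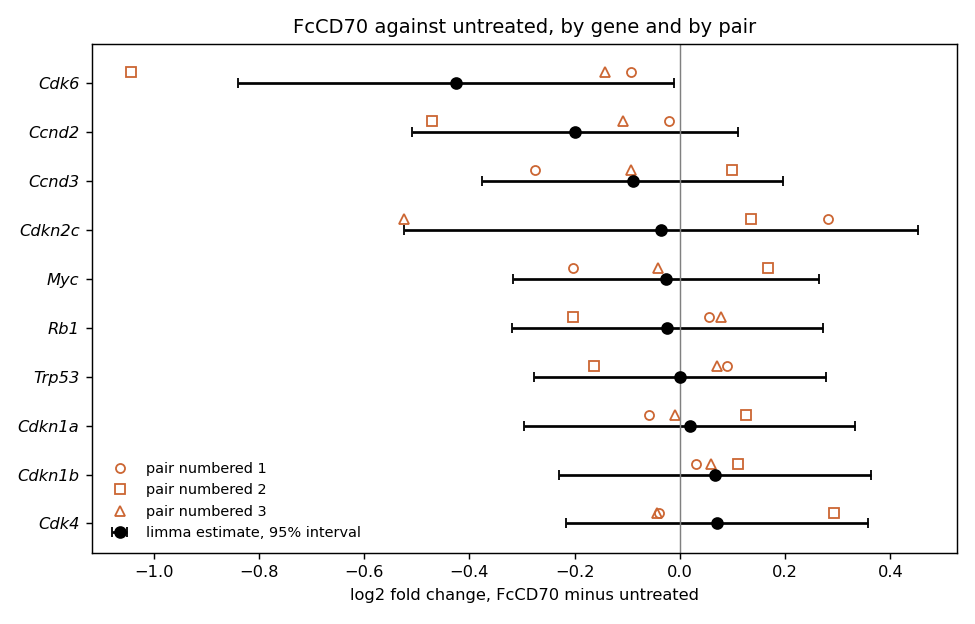
Log2 fold change of each gene, FcCD70 minus untreated (black points, limma estimates with 95% intervals; open symbols, the 3 same-numbered pairs). Cdk6 has the lowest estimate, -0.43, set mostly by the pair numbered 2 at -1.04, and the other intervals include 0.

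Cdk6, a kinase that the D cyclins activate and that is prominent in lymphoid cells, had the lowest estimate of the 10. Its normalized counts were 2260.2, 2756, 2648 and 2330.0 in the untreated libraries numbered 1 to 4 and 2119, 1338 and 2399.5 in the FcCD70 libraries numbered 1 to 3. The single low value was that of the FcCD70 library numbered 2, and the other FcCD70 values lay within or just under the untreated range. The means were 2499 ± 241 (SD, n = 4) and 1952 ± 550 (SD, n = 3) and the log2 fold change was -0.43 (SE 0.18, 95% interval -0.84 to -0.01). The pairs numbered 1, 2 and 3 differed by -0.09, -1.04 and -0.14 on the log2 scale. Without the libraries numbered 2 the estimate was -0.12 with the block. In the authors' deposited table, a DESeq2 analysis whose mean column covers 8 libraries, the log2 fold change of Cdk6, turned to FcCD70 minus untreated, was -0.35 (adjusted p = 0.99999).

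Genes with long transcripts were low as a whole in the FcCD70 library numbered 2 when set against its untreated partner. In this pair the 25% of genes with the longest merged exons (6912 bases and more) had a median log2 difference of -0.325. The shortest 25% (up to 2893 bases) had one of 0.336. Which library of the pair departed from the others by length was not tested. The corresponding medians were 0.0501 and -0.0689 in the pair numbered 1 and 0.0387 and -0.0497 in the pair numbered 3. Cdk6 has 13989 bases of merged exons, Ccnd2 9409 and Ccnd3 8775, all in the longest class. In the pair numbered 2 these genes had log2 differences of -1.04, -0.47 and 0.10. For Cdk6 the untreated library of this pair held the highest value of all libraries (2756). The FcCD70 library numbered 2 also held the least Foxp3, as given above. The part of the length trend and of the low Foxp3 in the values of Cdk6 and Ccnd2 was not tested.

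Cdk4, which like Cdk6 encodes a kinase that D cyclins bind, lay on the opposite side of 0 from Cdk6 in the pair numbered 2. Its normalized counts were 3293, 3359, 3537 and 3532 in the untreated libraries numbered 1 to 4 and 3205, 4117 and 3431 with FcCD70. The FcCD70 library numbered 2 was above every other library, and those numbered 1 and 3 were a little below their partners (log2 differences of -0.04 and -0.04, against 0.29 for number 2). The log2 fold change was 0.07 (SE 0.13, 95% interval -0.22 to 0.36), and it was -0.04 without the libraries numbered 2. The log2 ratio of Cdk4 to Cdk6 counts within a library was 0.29 to 0.60 in the 4 untreated libraries and 0.60, 1.62 and 0.52 in the FcCD70 libraries numbered 1, 2 and 3. Cdk4 has 3249 bases of merged exons, far fewer than Cdk6.

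The promoter of Cdk4 is shown because it is dense in CACGTG, the E-box that MYC binds with its partner MAX. Myc varied among these libraries as given below. Between the libraries numbered 3 and 4 and those numbered 1 and 2, the log2 difference was 0.71 for Myc and 0.0099 for Cdk4. The Cdk4 value includes the FcCD70 library numbered 2, which held the most Cdk4. Without that library, an alternative chosen after seeing the data, Cdk4 was higher at numbers 3 and 4 without overlap, as were 20.8% of all genes. Its counts were then 3431 to 3537 against 3205 to 3359, on the side of Myc. A link between Myc and Cdk4 was not tested. In RefSeq's table of windows from 250 bases before to 50 after a gene's start (GRCm38.p6), 7 of the 10 genes matched, with 10 windows. CACGTG reads the same on both strands and occurred in 7.15% of 32851 windows, and 4 or more copies occurred in 8 of them. Cdk4 was one of these. Capitals mark each copy in the 250 bases before its start (chr10:127063285-127063534, plus strand).
Cdk4: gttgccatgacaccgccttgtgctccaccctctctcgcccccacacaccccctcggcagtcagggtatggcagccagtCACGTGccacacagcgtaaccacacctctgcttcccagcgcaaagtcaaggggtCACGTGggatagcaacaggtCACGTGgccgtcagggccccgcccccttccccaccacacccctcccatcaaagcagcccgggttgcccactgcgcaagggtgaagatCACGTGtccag
Single copies lay in the windows of Cdk6 (chr5:3343661-3343690, plus strand), Trp53 (chr11:69580357-69580386, plus strand) and the more internal of a pair of Cdkn2c starts (chr4:109665323-109665352, minus strand), and 30 bases around each are given for comparison.
Cdk6: gttctgcggcccCACGTGggtgaacccccg
Trp53: actttcccctccCACGTGctcaccctggct
Cdkn2c: ttttgctgaataatCACGTGtgaatcgagg
The windows of Ccnd3, Cdkn1a and Cdkn1b held no copy, and Ccnd2, Rb1 and Myc had no entry. TTTCCCGC and TTTGGCGC, spellings of the E2F site that do not overlap CACGTG and were searched on both strands, occurred in none of the 10 windows, against 1.07% and 0.514% of all windows. A match here is a description of letters and no evidence of binding.

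Ccnd2, the D cyclin that mitogens and cytokines induce in lymphocytes, also had a low value in the FcCD70 library numbered 2. Its normalized counts were 6800.4, 6982, 10411 and 8950.01 in the untreated libraries numbered 1 to 4 and 6704, 5038 and 9662 in the FcCD70 libraries numbered 1 to 3. Libraries with the same number resembled each other at numbers 1 and 3, whatever their group. The means were 8286 ± 1719 (SD, n = 4) and 7135 ± 2342 (SD, n = 3) and the log2 fold change was -0.20 (SE 0.14, 95% interval -0.51 to 0.11). Pair by pair the log2 differences were -0.02, -0.47 and -0.11, and without the libraries numbered 2 the estimate was -0.06. Ccnd3, a D cyclin needed for the expansion of immature T cells, ranged from 2556 to 3176.5 in the untreated and from 2287 to 2978 in the FcCD70 libraries (log2 fold change -0.09, 95% interval -0.38 to 0.20), and its pairs lay on both sides of 0. The log2 ratio of Ccnd2 to Ccnd3 counts was 1.30 to 1.71 in the untreated libraries and 1.55, 0.88 and 1.70 in the FcCD70 libraries numbered 1, 2 and 3.

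The CDK inhibitors differed little between the groups. Cdkn1b had 12568, 13098, 12601 and 12476 normalized counts in the untreated libraries numbered 1 to 4 and 12834, 14137 and 13129.9 in the FcCD70 libraries numbered 1 to 3. It was the steadiest of the 10 genes, with a coefficient of variation of 4.41% over 7 libraries. Its FcCD70 value was above its partner in 3 of 3 pairs (9.03% of all genes), by 0.03 to 0.11 on the log2 scale, and the estimate was 0.07 (95% interval -0.23 to 0.36). Cdkn1a, encoding p21, an inhibitor that p53 induces, ranged from 638 to 757 untreated and from 613 to 752 with FcCD70 (log2 fold change 0.02, 95% interval -0.30 to 0.33). Cdkn2c, encoding the INK4 inhibitor p18, had 229.98, 234, 218.5 and 273 normalized counts in the untreated libraries numbered 1 to 4 and 279.6, 257 and 152 with FcCD70. The FcCD70 library numbered 3 was the lowest of all and the one numbered 1 the highest. Its pairs differed by 0.28, 0.14 and -0.52, and the estimate of -0.04 (SE 0.22, 95% interval -0.52 to 0.45) became 0.21 without the libraries numbered 3.

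Myc, Rb1 and Trp53 had estimates close to 0. The log2 fold change of Myc was -0.03 (SE 0.13, 95% interval -0.32 to 0.26), that of Rb1 -0.02 (SE 0.13, 95% interval -0.32 to 0.27) and that of Trp53 -0.00037 (SE 0.12, 95% interval -0.28 to 0.28). A shift beyond -0.32 or 0.28 on the log2 scale lies outside all of these unadjusted intervals, and smaller ones cannot be told from 0 here. The intervals give no limit of detection, since the larger estimate of Cdk6, -0.43, was not called (adjusted p = 0.9998 in limma). Leaving out 1 library or 1 number turned the sign of each.

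**Figure D3:**
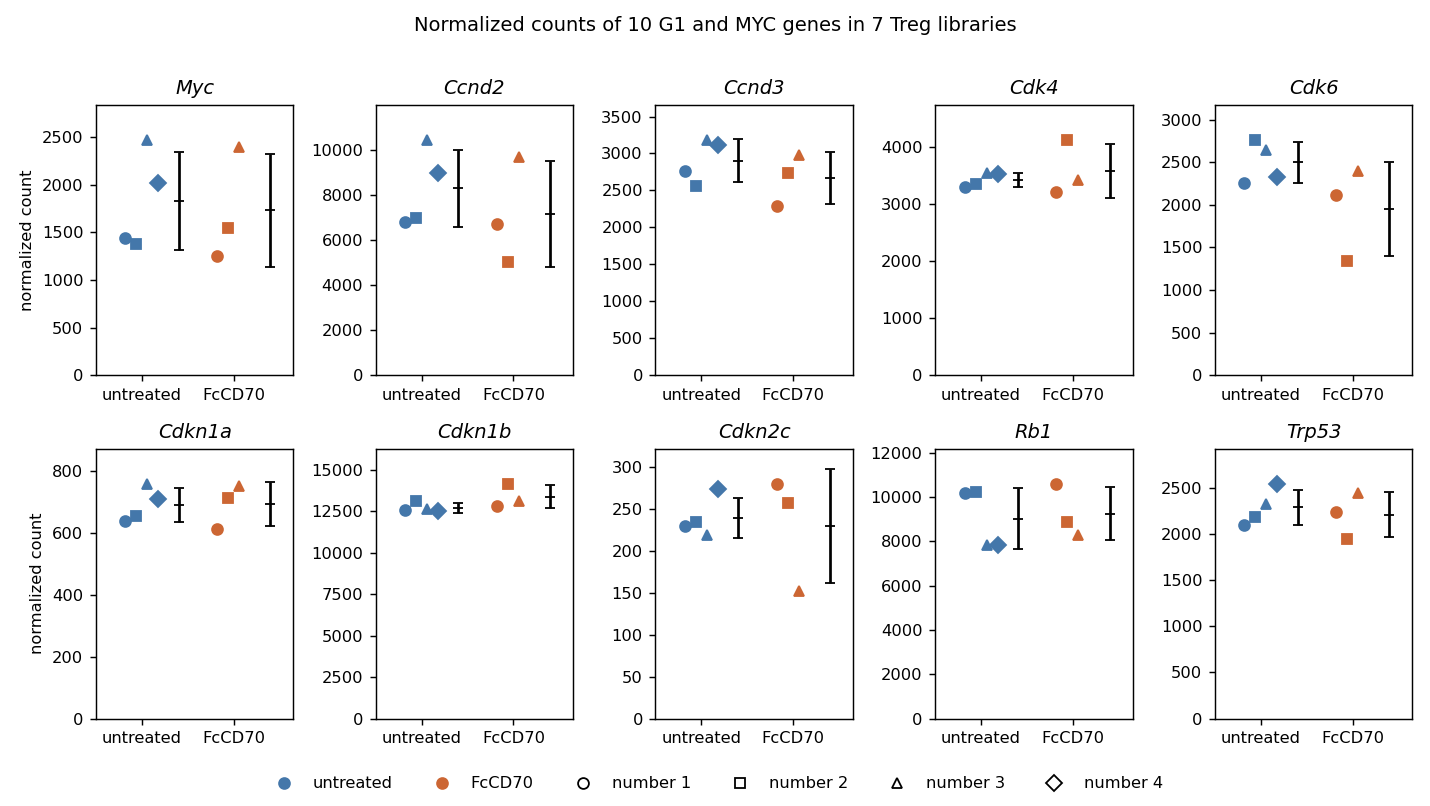
Normalized counts of the 10 genes on axes from 0, 1 symbol per library (colour gives the group, shape the replicate number), with the mean and SD of each group beside the points. The groups overlap in every panel, and the triangles and diamonds (numbers 3 and 4) lie above the circles and squares (numbers 1 and 2) for Myc and Ccnd2 and below them for Rb1.

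Myc, Ccnd2, Ccnd3, Trp53 and Rb1 separated the libraries numbered 3 and 4 from those numbered 1 and 2 in both groups, although none of the 10 genes passed limma's test over the numbers. Myc had 1438 and 1379 normalized counts in the untreated libraries numbered 1 and 2 and 2466 and 2014 in those numbered 3 and 4. With FcCD70 it had 1249 and 1549 at numbers 1 and 2 and 2394 at number 3. The 3 libraries numbered 3 and 4 were all above the 4 numbered 1 and 2, and the means were 2291 ± 243 (SD, n = 3) and 1404 ± 125 (SD, n = 4), a log2 difference of 0.71. Ccnd2 lay on the same side, at 9675 ± 731 (SD, n = 3) against 6381 ± 903 (SD, n = 4) normalized counts and a log2 difference of 0.61. Rb1 lay the other way. Its normalized counts were 10201 and 10227 in the untreated libraries numbered 1 and 2, 7842 and 7856 in those numbered 3 and 4, and 10597, 8885 and 8274 in the FcCD70 libraries numbered 1 to 3, a log2 difference of -0.32.

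Ccnd3 and Trp53 also lay higher at numbers 3 and 4 without overlap, by 0.26 and 0.20 on the log2 scale. Trp53 had 2104, 2184, 2324 and 2545 normalized counts in the untreated libraries numbered 1 to 4 and 2239, 1951 and 2442 with FcCD70. In all, 5 of the 10 genes did not overlap between numbers 3 and 4 and numbers 1 and 2, beside 22.2% of all genes. Without the FcCD70 library numbered 2, an alternative chosen after seeing the data, 7 of 10 did not overlap, beside 40.4% of all genes. The genes added were Cdk4 and Cdkn1a, both higher at numbers 3 and 4. Cdk4, Cdk6, Cdkn1a, Cdkn1b and Cdkn2c overlapped when all 7 libraries were used, with log2 differences from -0.26 to 0.26. Since number 4 had no FcCD70 library and the split of the numbers was known from earlier results of these data, these counts are descriptions. What the numbers stand for is not given in the sources used here.

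The 4 replicate numbers were compared with the group as a covariate. By limma's moderated F test 0 of 10 had an adjusted p under 0.05, beside 0.135% of all genes (15 of 11083). At an unadjusted p under 0.05 there were 2 of 10, Myc and Ccnd2, beside 8.02% of all genes. The estimates for Myc spanned 0.86 on the log2 scale between the lowest and the highest number (F = 11.97, adjusted p = 0.156) and those for Ccnd2 0.76 (F = 7.56, adjusted p = 0.295). The span was 0.42 for Rb1 (adjusted p = 0.776) and between 0.10 for Cdkn1b and 0.57 for Cdkn2c among the other 7. DESeq2's likelihood ratio test called 2 of the 10, Myc (adjusted p = 0.00443) and Ccnd2 (adjusted p = 0.0303), beside 2.14% of all genes (237 of 11083). Of the 10 genes edgeR called 0, with 2 at an unadjusted p under 0.05, and it called 0 of all 11083, with 854 at that unadjusted p. Without the libraries numbered 2, limma called 4 of the 10 genes, which were Myc, Ccnd2, Ccnd3 and Rb1, but that fit called 16.3% of all genes (1809 of 11090) and rests on 1 residual degree of freedom.

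**Figure D4:**
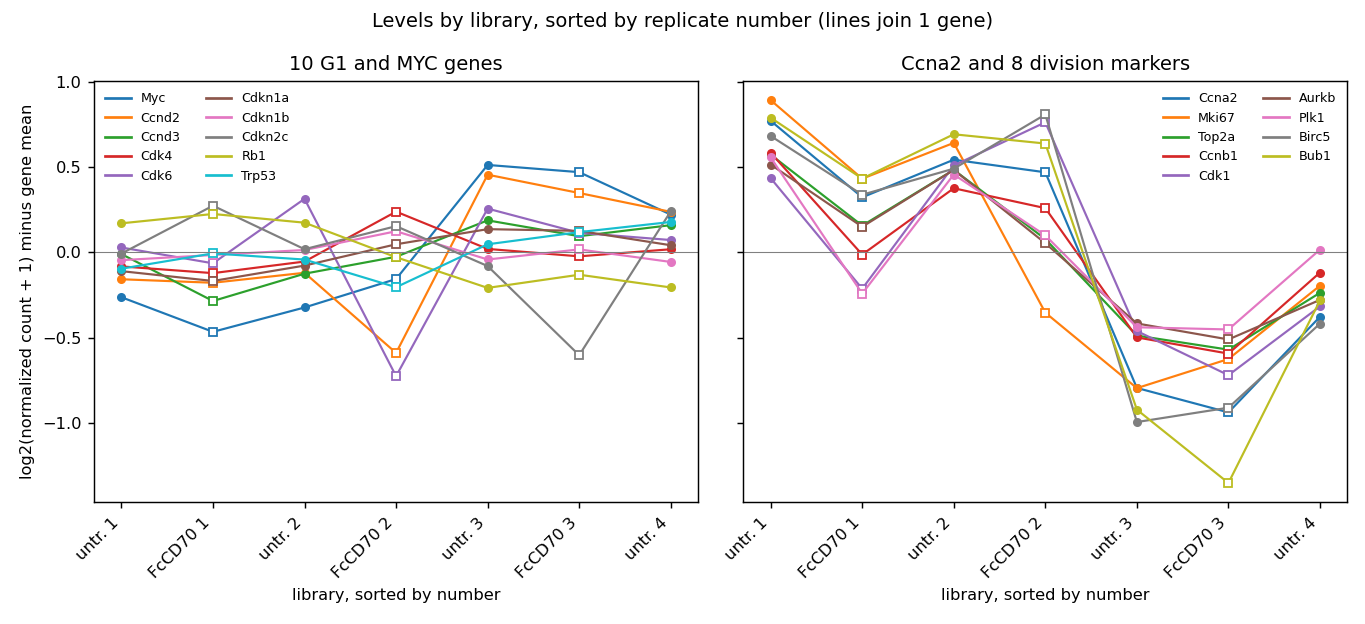
Log2(normalized count + 1) minus each gene's mean over 7 libraries, with libraries sorted by replicate number (filled circles untreated, open squares FcCD70; lines only join the points of 1 gene). Left, the 10 genes, where Myc and Ccnd2 are highest at numbers 3 and 4; right, Ccna2 and 8 division markers, whose median difference for the 8 markers is -0.815.

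Markers of dividing cells were lower where Myc and Ccnd2 were higher in this split. Of 8 division markers, all 8 had a log2 difference below 0, beside 5306 of 11083 genes. Without overlap 6 were lower at numbers 3 and 4 and 0 higher, beside 11.1% of all genes each way. The median log2 difference of the 8 was -0.815, against 0.0111 for all genes. The F test over the numbers called 2 of these 8 markers, beside 0.135% of all genes. They were Bub1 and Birc5, which act in chromosome segregation (adjusted p = 0.0411 and 0.0494 in limma). Of 9 tested genes that enter with or follow the D cyclins (cyclins E and A, Cdk2, Cdc25a, the CDK-activating kinase), 3 were lower without overlap (Ccna2, Ccne2 and Cks1b) and 1 was higher (Cdc25a, by 0.26), beside the same 11.1% of all genes each way, with a median log2 difference of -0.147. Cdk2 and Ccne1, at 0.0059 and -0.02, lay close to 0, and the genes of this list other than Ccna2 are named after their values were seen. The F test called 1 of the 9, beside 0.135% of all genes. It was Ccna2, cyclin A2, with 1743, 1487, 587 and 784 normalized counts untreated and 1276, 1413 and 531 with FcCD70, so the libraries numbered 3 and 4 were lowest while the same libraries held the most Myc and Ccnd2. The calls of Bub1, Birc5 and Ccna2 did not hold with edgeR or without the filter, where 0 of all genes were called. Nor did they hold with TMM library sizes, where 2 other genes were called. In bulk samples, fewer dividing cells and less RNA per cell cannot be told apart.

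Among genes that MYC is known to induce, 16 had a log2 difference above 0 in this split, the side of Myc, and 8 below. Of all 11083 genes 5777 lay above 0 and 5306 below. Of 24 targets (ribosome biogenesis, nucleotide and polyamine synthesis, amino acid transport), 6 were higher at numbers 3 and 4 without overlap and 1 lower (Mcm5, a replication gene, named after its values were seen), beside 11.1% of all genes in each direction, with a median log2 difference of 0.144. Without the FcCD70 library numbered 2, an alternative chosen after seeing the data, 12 were higher and 2 lower, beside 20.8% and 19.7% of all genes. The F test called 0 of the 24. Of 10 tested genes of the MYC network, the partners and antagonists of MYC, 2 were higher and 1 lower without overlap, near the share of all genes, and 3 were higher and 3 lower without that library. The median of the MYC targets between FcCD70 and untreated was -0.10, with 19 of 24 below 0, beside 5640 of 11083 genes, and 0 called. The lowest p of this list belonged to Cad, the enzyme that starts pyrimidine synthesis, with a log2 fold change of -0.37 (adjusted p = 0.9998 in limma).

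Other genes of the pathway showed no difference between FcCD70 and untreated cells past the threshold. In each list 0 members were called, as were 0% of all genes. Of all 11083 genes tested 5640 lay below 0 and 5443 above. The division markers had the median farthest from 0 among these lists, -0.29, with 7 of 8 below 0 and 0 called, and their medians in the pairs numbered 1, 2 and 3 were -0.44, -0.24 and -0.09. The lowest p among them belonged to Top2a, a topoisomerase of replicating cells, with 6572, 6178, 3145 and 3744 normalized counts untreated and 4923, 4660 and 2970 with FcCD70 (log2 fold change -0.30, adjusted p = 0.9998 in limma). Its FcCD70 value was below its partner in every pair, and the groups overlapped. Of 14 pocket protein and E2F genes 10 lay below 0 (median -0.08), and E2f8, an E2F repressor of late G1 and S phase, had the lowest p, with 438, 275, 80.6 and 149 normalized counts untreated and 222, 101 and 85.5 with FcCD70 (log2 fold change -0.78). Of 7 tested genes of other CDK inhibitors and their degradation 5 lay above 0 (median 0.05). Among them Fbxw7, a ubiquitin ligase subunit that marks cyclin E and MYC for degradation, had a log2 fold change of -0.32. Cdkn1c, encoding the inhibitor p57, had one of 0.51 (adjusted p = 0.9998 in limma). Its counts were 30.5 to 36.3 untreated and 48.7 to 53.9 with FcCD70, free of overlap as were 2.53% of all genes. The other INK4 genes Cdkn2a and Cdkn2b did not pass the filter, with means of 5.04 and 2.78 normalized counts over 7 libraries. Skp2 was not analysed here.

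The genes most like 3 of the 10 over the 7 libraries were sought by the root mean square difference of log2 values centred on each gene's mean. For Myc, whose own values spread by 0.369 around its mean, these were Vat1 (0.0605), Espn (0.0813) and Faap100 (0.0915). For Ccnd2, with a spread of 0.34, they were Treml2 (0.0578), Pdxk (0.0596) and Mier2 (0.0642), and for Cdkn1a, with a spread of 0.11, Got1 (0.0199), Ubqln1 (0.0282) and Mogs (0.029). Treml2, for example, was lowest in the FcCD70 library numbered 2, as Ccnd2 was, with 4109 normalized counts, and 7537 in the untreated library numbered 3. With 11082 genes compared over 7 libraries, likeness of this size is a description of the pattern only.

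For 6 of the 10 genes an annotated gene on the opposite strand overlaps the exons. These are Tspan31 for Cdk4 (641 bases), Bysl for Ccnd3 (361 bases), Rcbtb2 and Lpar6 for Rb1 (488 and 408 bases), and antisense or unclassified transcripts for Ccnd2, Cdk6 and Cdkn1a. Myc, Cdkn1b, Cdkn2c and Trp53 have no such overlap in GENCODE M21. No source used here says whether the counting used strand, and reads of the overlaps may be shared. The genes lie, in GRCm38 coordinates of GENCODE M21, at chr15:61985391-61990374 (Myc), chr6:127125162-127152193 (Ccnd2), chr17:47505051-47599691 (Ccnd3), chr10:127063534-127067920 (Cdk4), chr5:3341485-3531008 (Cdk6) and chr17:29090976-29100727 (Cdkn1a). Cdkn1b lies at chr6:134920401-134925513, Cdkn2c at chr4:109660876-109667189, Rb1 at chr14:73183673-73325822 and Trp53 at chr11:69580359-69591873.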

How the data were processed

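Libraries came from poly(A) RNA and a TruSeq kit that marks strand, per the labels' protocols. Per the submitters' processing notes, the tools were DESeq2, HTSeq, SAMtools and TopHat2 and the build was GRCm38.p4; their roles and the annotation release are not stated there. The deposited signal is a read count divided by 1 size factor per library: every value is a whole multiple of 1 step (100% within 0.01), so reads were recovered. The authors' log2 fold changes with their standard errors, their Wald score and their p-values come from DESeq2, per the file headers, and are coded untreated minus FcCD70. The deposited table covers 8 libraries in its mean column, and 7 have a column.

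Limma 3.58.1 with a trend was fitted to log2(value + 1) of all genes with a mean of at least 10, with the replicate number as a block, because the authors' file is named as a paired analysis (2 residual degrees of freedom), and p-values were adjusted by Benjamini-Hochberg at 0.05. Fold changes are on that scale, which understates those of low genes. edgeR 4.0.16 and DESeq2 1.42.0 were run on recovered reads, in R 4.3.3. The test of FcCD70 against untreated was tried on simulated data with limma, edgeR and DESeq2, and the other steps were not. Other alternatives were the pseudocount, the filter, TMM library sizes, no block, and leaving out libraries. Members, lists and tests were chosen with earlier results of these data known. Named genes beyond the 10 members were, per list, those called or else those with the smallest p in a direction, and the 3 nearest profiles of Myc, Ccnd2 and Cdkn1a. Exon lengths from GENCODE M21 matched 99.9% of the tested genes. Intervals cover the spread between libraries; 3 reads is the floor for a count of 0, for counting error only.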

Additional observations from a re-analysis of the deposited data

How the results depend on the processing

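The 10 members stayed uncalled between FcCD70 and untreated in all 18 alternatives. The number of genes called was 1 with DESeq2 and 0 to 19 when libraries were left out (19 without the libraries numbered 2, 6 without those numbered 3). The check of the replicate number gave correlations between same-numbered libraries' deviations of 0.261, 0.0128 and 0.468, so number 2 did not show a pairing. For number 1 the FcCD70 library had 0.191 with the untreated library numbered 2, not far below the 0.261 with its partner. The other correlations between unlike numbers ran from -0.395 to 0.0269. Without the replicate block 0 genes and 0 members were called, and Rb1 turned to 0.039. Leaving out libraries turned the sign of 7 members at some point, none of them called in either direction. Over those fits the log2 fold change ran, for Ccnd3, from -0.21 to 0.0032, for Cdk4 from -0.048 to 0.13 and for Cdkn1a from -0.058 to 0.089. It ran for Cdkn2c from -0.27 to 0.21, for Myc from -0.35 to 0.12, for Rb1 from -0.074 to 0.12 and for Trp53 from -0.13 to 0.081. Cdk6 (-0.59 to -0.12), Ccnd2 (-0.49 to -0.02) and Cdkn1b (0.03 to 0.10) kept their sign in all 18. For the replicate number, 15 genes were called, 0 without a filter, 0 with edgeR, 237 with DESeq2, 2 with TMM library sizes (Kit and Gzmb, named after their values were seen), and 39 to 1809 with 1 number left out. The members called were 2 with DESeq2 and 0 to 4 with 1 number left out. The causes of these shifts were not tested. Fits without 1 number have 1 residual degree of freedom.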

Other observations

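Trp53 was higher at numbers 3 and 4, and more of its known targets lay lower there than higher. Of 18 p53 targets 12 had a log2 difference below 0 and 6 above (median -0.157), beside 5306 and 5777 of 11083 genes. Without overlap 7 were lower and 0 higher, beside 11.1% of all genes each way, and without the FcCD70 library numbered 2 these were 9 and 2, beside 19.7% and 20.8%. Those lower with all 7 libraries included Ccng1, Pmaip1, Fas, Sesn1 and Sesn2, named after their values were seen. The F test over the numbers called 0 of the 18. Cdkn1a, also a p53 target, had a log2 difference of 0.18, with overlap when all 7 libraries were used. It was higher without overlap when the FcCD70 library numbered 2 was left out. Between FcCD70 and untreated, 11 of the 18 targets lay above 0 (median 0.03), beside 5443 of 11083 genes, and 0 were called. The smallest p in each direction belonged to Ei24 (log2 fold change 0.12) and Tnfrsf10b (-0.13).

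Of 7 tested p53 regulators 6 lay below 0 with FcCD70 (median -0.17), and their median was -0.35 in the pair numbered 2, against 0.0052 and 0.0058 in the other pairs. Mdm2, the ligase that degrades p53 and itself a p53 target, and Foxo1 were named after their values were seen. Mdm2 held 2717 normalized counts in the FcCD70 library numbered 2 and 2577 to 2776 in the other 6. Foxo1, whose product induces Cdkn1b, had a log2 fold change of 0.02. Of 10 FOXO genes and targets 7 lay above 0 (median 0.03), beside 5443 of 11083 genes. The smallest p in each direction belonged to Il7r, the IL-7 receptor chain (0.42), and Bcl2l11, a pro-apoptotic gene (-0.31), neither past the threshold. Bcl2l11 held 1963 to 2292 normalized counts untreated and 1616 to 1856 with FcCD70, free of overlap as were 2.53% of all genes. For Il7r the groups overlapped.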
